A study of Mus musculus with 6 samples.

Results

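Expression of 33 genes that drive cells through mitosis was followed in mouse bone marrow-derived macrophages. They were chosen by name among the 22180 genes the arrays measured, as kinases and cyclins of mitotic entry, kinetochore and spindle proteins, checkpoint proteins, condensin subunits and factors of mitotic exit, with genes of kinesin (Kif) symbols left out, although Cenpe is itself a kinesin-type motor. The choice was made with earlier results of these data known. All 33 were measured, each by 1 probe set that names a single gene. Bone marrow cells of C57Bl/6 mice were grown for 5 days in 20 ng/ml M-CSF, the growth factor that turns precursors into macrophages, and then scraped, replated and kept for 6 days under 1 of 3 conditions. The first group was kept in 50 ng/ml M-CSF. The second received 20 ng/ml FSL-1, a synthetic lipopeptide that activates TLR2 together with TLR6, and is called multinucleated giant cells in the series design. The third received 20 ng/ml FSL-1 and 10 µM nutlin-3a, a compound that keeps Mdm2 from binding p53. All groups shared the M-CSF preculture. The labels do not say if M-CSF stayed in the medium of the FSL-1 cultures. In comparisons against the M-CSF group, a change in M-CSF and the addition of FSL-1 therefore cannot be told apart. Below, "with FSL-1" names that contrast of groups and not a cause. RNA of sorted cells was hybridised to 6 arrays, 2 for each group. The labels give neither the gate of the sort, nor the age of the mice, nor whether replicates were separate cultures or animals. The p-values therefore measure only how far these samples spread, and that spread may be technical.

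Entry into mitosis is driven by Cdk1 bound to cyclins, with Plk1 and Aurora kinases acting beside it. Chromosomes are compacted by condensin, attach to the spindle through kinetochores built on the centromeric histone Cenpa, and are held at that stage by a checkpoint until every kinetochore is attached. The anaphase-promoting complex, activated by Cdc20, then marks securin and cyclins for degradation and lets the sister chromatids part. Most of these genes are transcribed in G2 and M phase. Their promoters often carry a CCAAT box, which is bound by NF-Y, and a cell cycle genes homology region (CHR), which is bound by the MuvB complexes that activate the genes in dividing cells and, after p53 activation, repress them as part of the DREAM complex.

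The promoters of 6 of the genes are shown because the 33 genes largely moved together. Each window runs from 250 bases before to 50 bases after an annotated start, on the gene's strand, from RefSeq on GRCm38.p6. Capitals mark matches to the CHR letters TTTGAA or TTCGAA and to CCAAT, each searched on both strands with overlapping matches counted. The genes are the mitotic kinases Cdk1 (chr10:69352863-69353162, minus strand) and Plk1 (chr7:122159185-122159484, plus strand), the cyclin Ccnb2 (chr9:70421505-70421804, minus strand), the centromeric histone Cenpa (chr5:30666636-30666935, plus strand), the ubiquitin-conjugating enzyme Ube2c (chr2:164769679-164769978, plus strand) and securin, Pttg1 (chr11:43425932-43426231, minus strand).
Cdk1: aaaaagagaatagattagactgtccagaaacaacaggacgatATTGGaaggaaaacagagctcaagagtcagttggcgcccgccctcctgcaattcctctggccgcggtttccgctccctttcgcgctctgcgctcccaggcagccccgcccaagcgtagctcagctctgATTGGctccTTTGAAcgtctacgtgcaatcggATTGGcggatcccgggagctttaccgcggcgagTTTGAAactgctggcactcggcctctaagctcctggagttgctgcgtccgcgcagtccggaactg
Plk1: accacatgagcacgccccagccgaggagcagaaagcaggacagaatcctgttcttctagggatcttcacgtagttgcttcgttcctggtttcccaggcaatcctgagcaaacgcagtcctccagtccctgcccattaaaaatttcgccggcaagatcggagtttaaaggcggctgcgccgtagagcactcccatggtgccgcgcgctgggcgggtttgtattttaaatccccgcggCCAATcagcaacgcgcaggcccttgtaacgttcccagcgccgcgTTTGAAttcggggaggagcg
Ccnb2: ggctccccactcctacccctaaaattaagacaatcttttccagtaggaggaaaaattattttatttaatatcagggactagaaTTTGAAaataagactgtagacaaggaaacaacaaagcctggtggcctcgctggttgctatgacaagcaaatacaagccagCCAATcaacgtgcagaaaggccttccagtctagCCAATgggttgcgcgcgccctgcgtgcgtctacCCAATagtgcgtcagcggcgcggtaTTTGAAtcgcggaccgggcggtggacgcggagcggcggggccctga
Cenpa: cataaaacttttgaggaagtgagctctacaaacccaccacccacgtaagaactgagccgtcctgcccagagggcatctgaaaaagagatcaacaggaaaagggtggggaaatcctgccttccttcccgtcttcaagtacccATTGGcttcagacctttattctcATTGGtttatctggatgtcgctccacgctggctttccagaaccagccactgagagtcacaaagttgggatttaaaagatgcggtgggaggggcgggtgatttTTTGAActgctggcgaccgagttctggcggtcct
Ube2c: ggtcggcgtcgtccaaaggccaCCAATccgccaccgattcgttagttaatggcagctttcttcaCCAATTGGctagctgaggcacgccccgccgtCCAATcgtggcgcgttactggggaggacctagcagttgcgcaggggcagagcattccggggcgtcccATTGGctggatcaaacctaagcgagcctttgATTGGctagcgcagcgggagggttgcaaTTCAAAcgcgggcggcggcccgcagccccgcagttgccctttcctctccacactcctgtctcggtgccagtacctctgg
Pttg1: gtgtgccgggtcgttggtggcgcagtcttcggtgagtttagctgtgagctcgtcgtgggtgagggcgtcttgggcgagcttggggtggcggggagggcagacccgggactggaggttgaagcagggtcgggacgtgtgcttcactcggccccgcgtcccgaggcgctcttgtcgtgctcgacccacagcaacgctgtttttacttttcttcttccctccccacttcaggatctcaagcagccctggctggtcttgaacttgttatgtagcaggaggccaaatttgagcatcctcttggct
The Pttg1 window lies at a start 1482 bases inside the annotated span of the gene, whereas those of Cdk1, Plk1, Ccnb2 and Ube2c lie at the edge of theirs. Among the windows counted below but not shown, those of Sgo1, Cdc25b and Aurka start 2016, 512 and 316 bases inside. These windows hold both motifs. The 6 genes shown are examples, and only Pttg1 among them has neither motif. The windows of Nusap1, Nuf2, Melk, Ncaph and Mad2l1, not shown, have neither as well. From M-CSF to FSL-1 + nutlin-3a these genes fell, with log2 changes of -3.43, -2.96, -2.43, -2.17 and -1.05.

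RefSeq windows were found for 28 of the 33 genes, all except Ccna2, Cdc25c, Tpx2, Dlgap5 and Smc4. CHR letters were found in 20 of these 28 windows (71.4%), against 19.2% of the 32851 windows of all genes. CCAAT was found in 21 of 28 (75%), against 37.4% of all windows. Both motifs were present in 19 of 28 (67.9%), against 7.52% of all windows. In each of these 19 promoters a CCAAT box began upstream of the CHR nearest to the start. Any CCAAT box of the window counted, and the windows reach much further before the start than after it. This order is therefore largely set by the layout of the windows. Its share among all windows was not computed, so no conclusion is drawn from it. A CHR beginning within 30 bases before to 49 bases after the start was present in 19 of 28 windows (67.9%), against 4.14% of all windows. Neither motif was present in the windows of Mad2l1, Melk, Ncaph, Nuf2, Nusap1 and Pttg1. A match describes letters and not binding. The genes with both motifs and those with neither overlapped in how much they changed: from M-CSF to FSL-1 + nutlin-3a the log2 change was -3.07 to -1.16 with a median of -2.10 in the first 19 genes, and -3.43 to 0.24 with a median of -2.30 in the other 6.

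**Figure D1:**
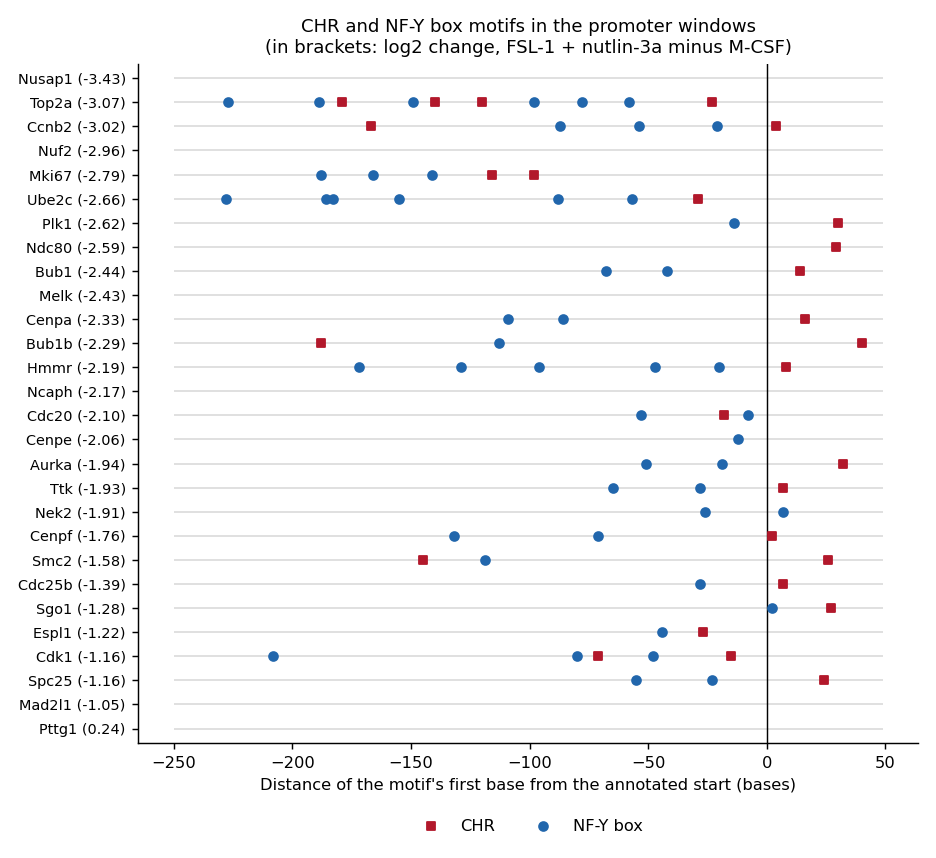
Positions of the CHR (red squares, TTTGAA or TTCGAA) and the NF-Y box (blue circles, CCAAT) in the promoter windows of 28 mitotic genes, as the distance in bases of the motif's first base from the annotated start. Genes are ordered from the lowest to the highest log2 change from M-CSF to FSL-1 + nutlin-3a, given in brackets. Windows with both motifs lie from -3.07 to -1.16 in this order, and the 6 windows with neither lie from -3.43 to 0.24. Both ends of the order, Nusap1 and Pttg1, are windows with neither.

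The arrays agreed within groups at a correlation of 0.9929 to 0.9951 across genes (3 replicate pairs), against 0.9788 to 0.9858 between groups (12 pairs). All 10 macrophage markers looked up lay above the median of all genes (5.51, log2) on every array. Their summed linear level was 38322 to 39610 for M-CSF, 38758 to 39080 with FSL-1 and 36997 to 37945 after nutlin-3a was added. The brightest markers weigh most in this sum, and single markers changed at an adjusted p under 0.05 (limma). With FSL-1, Csf1r fell (log2 change -0.87), while Adgre1 (0.56) and Itgam (0.74) rose. When nutlin-3a was added, Fcgr1 (-1.58), Cd14 (-1.12) and Mrc1 (-0.85) fell and Tyrobp (0.73) rose. Of 10 neutrophil markers 0 lay above that median on every array, and their sum was 244 to 253, 341 to 346 and 313 to 337 in the 3 groups. S100a8 changed most among them, with means of 4.19, 6.6 and 6.36 (log2). Lymphocyte markers (9 measured) summed to 1597 to 1912, 939 to 1016 and 1363 to 1465, with only Cd4 above the gene median on every array. The sums were 561 to 598, 765 to 965 and 507 to 560 for 10 fibroblast and stromal markers, 215 to 226, 177 to 195 and 173 to 180 for 6 erythroid and progenitor markers, and 610 to 680, 772 to 805 and 719 to 777 for 7 dendritic cell markers. Of these lists 2, 0 and 2 genes lay above the gene median on every array. Among the fibroblast and stromal markers Acta2 changed most, with means of 7.61, 8.59 and 7.26 (log2). The part of these shifts in the results was not tested.

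The mitotic genes were highest in M-CSF, lower in FSL-1 and lowest in FSL-1 + nutlin-3a. With FSL-1 against M-CSF, 19 of the 33 fell and 0 rose at an adjusted p under 0.05 (limma), while 2.95% of all genes fell and 3.91% rose. At an unadjusted p under 0.05, 28 of the 33 fell and 0 rose. The share of all genes was not computed at that threshold, here or for the unadjusted counts below. The percentages of all genes are those at the adjusted p. The median log2 change of the 33 genes was -0.64, against -0.01 over all genes. When nutlin-3a was added to FSL-1, 31 of the 33 fell and 0 rose (32 and 0 at an unadjusted p under 0.05), with 4.12% of all genes falling and 2.38% rising, and the median was -1.48, against 0.02 over all genes. Between M-CSF and FSL-1 + nutlin-3a, 32 of the 33 fell and 0 rose (32 and 0 at an unadjusted p), with 4.94% of all genes falling and 4.58% rising, and the median was -2.10, against 0.02. These 3 comparisons share their arrays, so the counts are not separate evidence. Because the 33 genes were chosen with earlier results known, the shares of all genes beside them are a description and not a test. Each array measures pooled RNA of sorted cells, so fewer dividing cells and less RNA per dividing cell cannot be told apart, and the part of the sort in the share of dividing cells was not tested.

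Arrays of the groups seldom overlapped for these genes. Both FSL-1 arrays lay below both M-CSF arrays for 31 of 33 genes (25.6% of all genes did so), and both nutlin-3a arrays lay below both FSL-1 arrays for 32 of 33 (23.7% of all genes). Against M-CSF both nutlin-3a arrays were lower for 32 of 33 (24.2% of all genes) and higher for Pttg1. Mean levels of the 33 genes ran from 6.12 (Sgo1) to 10.18 (Mki67) in M-CSF, and 0 of them lay below the median of all genes. In FSL-1 + nutlin-3a 12 lay below it, and Cdc25c, at 4.14, lay below the median of probe sets that name no gene (4.26). RMA values near that level change little with the amount of RNA, so the decrease of such genes can be understated.

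**Figure D2:**
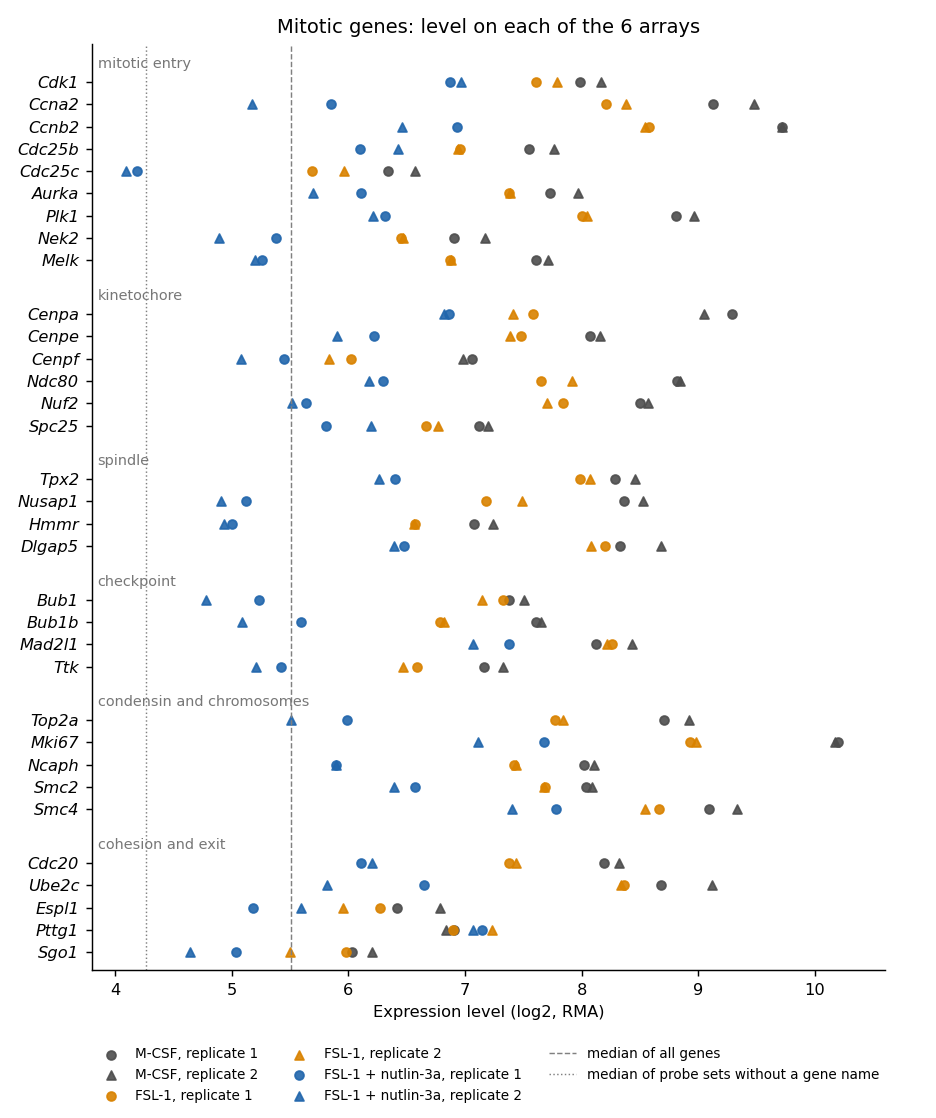
Level of each of the 33 mitotic genes (log2, RMA) on each array, grouped by role, with M-CSF in grey, FSL-1 in orange and FSL-1 + nutlin-3a in blue; circles are replicate 1 and triangles replicate 2. The dashed and dotted lines are the medians of all genes (5.51) and of probe sets without a gene name (4.26). Blue points lie left of orange points for all genes except Pttg1.

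Replicates of a group also differed together in these genes. In M-CSF, replicate 2 was higher than replicate 1 for 28 of the 33 genes, with a median difference of 0.16, and in FSL-1 + nutlin-3a replicate 1 was higher for 27, with a median of -0.18 for replicate 2 minus replicate 1. In FSL-1 the split was 17 to 16, with a median of 0.01. Over all genes the medians of replicate 2 minus replicate 1 were 0.01 for M-CSF, 0.02 for FSL-1 and -0.01 with nutlin-3a. Replicate 2 was higher for 51.1%, 53.8% and 48.4% of all genes in these groups.

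All 9 genes of mitotic entry fell with nutlin-3a and 6 of them with FSL-1, and their median change over both steps was -2.31. Ccna2, the cyclin of S phase and early mitosis, was at 9.13 and 9.48 in M-CSF, 8.21 and 8.38 in FSL-1, and 5.85 and 5.17 in FSL-1 + nutlin-3a (log2, probe set 17404821). Its groups did not overlap, and it was 13.8-fold lower in FSL-1 + nutlin-3a than in M-CSF (log2 change -3.79, SE 0.226, adjusted p = 6.26e-05). Its FSL-1 step (-1.01, adjusted p = 0.0383) did not pass when any 1 of the 4 compared arrays was omitted, nor with the replicate number as a block. Ccnb2, a B-type cyclin that activates Cdk1, was at 9.72 on both M-CSF arrays, 8.58 and 8.54 in FSL-1, and 6.93 and 6.46 in FSL-1 + nutlin-3a (probe set 17528586). It fell 2.24-fold with FSL-1 (log2 change -1.16, SE 0.161, adjusted p = 0.00581, lost without FSL-1 replicate 2) and 3.64-fold more with nutlin-3a (adjusted p = 0.000938). Plk1, the kinase of centrosome maturation and spindle assembly, was at 8.81 and 8.96 in M-CSF and 6.31 and 6.21 in FSL-1 + nutlin-3a, with FSL-1 between them (8.03 ± 0.04, SD, n = 2, probe set 17482739). Its 3 groups lay apart by more than any replicate difference, with a 1.81-fold decrease in the first step (log2 change -0.86, SE 0.119, adjusted p = 0.00572, lost without FSL-1 replicate 1) and a 3.40-fold decrease in the second (adjusted p = 0.000307).

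Cdk1 itself, the kinase these cyclins activate, changed by a smaller amount. Its level was 7.99 and 8.17 in M-CSF, 7.61 and 7.79 in FSL-1, and 6.87 and 6.97 in FSL-1 + nutlin-3a (probe set 17241692). The groups did not overlap, but the FSL-1 step did not pass (log2 change -0.38, 95% interval -0.67 to -0.08, adjusted p = 0.139). Nutlin-3a lowered it 1.72-fold (log2 change -0.78, SE 0.128, adjusted p = 0.0131), a call lost when any 1 of the FSL-1 or FSL-1 + nutlin-3a arrays was left out, and over both steps it was 2.23-fold lower (adjusted p = 0.00124). Cdc25b and Cdc25c, phosphatases that remove inhibitory phosphates from Cdk1, fell in both steps. Cdc25a, a related phosphatase from the list of other entry genes, did not pass in any comparison (log2 change 0.29, adjusted p = 0.234, then -0.27, adjusted p = 0.267, and 0.02 over both, adjusted p = 0.949). Cdc25c was at 6.34 and 6.57, then 5.69 and 5.96, then 4.19 and 4.09, and was 4.97-fold lower over both steps (adjusted p = 7.59e-05). Its FSL-1 call (adjusted p = 0.0391) was lost in 9 of 13 alternatives. Cdc25b was at 7.55 and 7.76, then 6.96 and 6.94, then 6.10 and 6.43, with nearly equal log2 changes in both steps (-0.71 and -0.68, adjusted p = 0.0291 and 0.0358) and a 2.62-fold decrease in all. The calls of the single steps were lost without any 1 of the arrays they compare, except that the second step held without FSL-1 + nutlin-3a replicate 2. Whether Cdc25b and Cdc25c differ was not tested.

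The other kinases of this stage fell too. Aurka, which matures the centrosomes, was at 7.73 and 7.97 in M-CSF and 7.38 and 7.39 in FSL-1, a log2 change of -0.46 that did not pass (adjusted p = 0.147), and at 6.11 and 5.70 with nutlin-3a, a 2.79-fold decrease from FSL-1 (adjusted p = 0.00231). Nek2, which helps to part the centrosomes, had -0.58 in the first step (adjusted p = 0.0992) and -1.33 in the second (adjusted p = 0.0053, lost without FSL-1 replicate 2). Melk, a kinase abundant in dividing cells, was at 7.61 and 7.71, then 6.87 and 6.88, then 5.26 and 5.20, and it fell in both steps (log2 change -0.79, adjusted p = 0.00636, lost without either FSL-1 array, and -1.64, adjusted p = 0.000334).

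All 6 kinetochore genes fell with nutlin-3a and 5 of them with FSL-1. Cenpa, the histone variant on which the kinetochore is built, was at 9.29 and 9.05 in M-CSF, 7.58 and 7.41 in FSL-1, and 6.86 and 6.82 with nutlin-3a (probe set 17435825). Most of its decrease came with FSL-1: 3.18-fold (log2 change -1.67, SE 0.131, adjusted p = 0.000364), the lowest change among the 33 genes in that comparison, against 1.57-fold with nutlin-3a (log2 change -0.65, adjusted p = 0.0278, lost without any 1 of the 4 compared arrays). Cenpf, a large protein of the outer kinetochore, was at 7.06 and 6.98, then 6.02 and 5.83, then 5.45 and 5.08, with changes of -1.10 (adjusted p = 0.00562, lost without FSL-1 replicate 2) and -0.66 (adjusted p = 0.0433, lost without either FSL-1 array, either M-CSF array or FSL-1 + nutlin-3a replicate 2). Nuf2, which with Ndc80, Spc25 and Spc24 forms the complex that grips microtubules, was at 8.50 and 8.57, then 7.84 and 7.70, then 5.64 and 5.52 (probe set 17229433). It had a log2 change of -0.76 with FSL-1 (adjusted p = 0.00914, lost without M-CSF replicate 1 or either FSL-1 array) and -2.19 with nutlin-3a (SE 0.118, adjusted p = 0.000179). Its partner Ndc80 was at 8.82 and 8.84, then 7.65 and 7.92, then 6.30 and 6.18, with changes of -1.04 (adjusted p = 0.0037) and -1.55 (adjusted p = 0.000842). Spc25, of the same complex, had -0.43 (adjusted p = 0.139) and -0.72 (adjusted p = 0.0304, lost without either FSL-1 array or FSL-1 + nutlin-3a replicate 1). The kinetochore motor Cenpe had -0.68 (adjusted p = 0.0264, lost without any 1 of the 4 compared arrays) and -1.38 (adjusted p = 0.00169).

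All 4 spindle genes fell with nutlin-3a and 2 of them with FSL-1. Nusap1, which bundles spindle microtubules, was at 8.36 and 8.53, then 7.18 and 7.49, then 5.12 and 4.91 (probe set 17374833). It fell 2.17-fold with FSL-1 (log2 change -1.12, SE 0.150, adjusted p = 0.00495) and 4.99-fold with nutlin-3a (adjusted p = 0.000274), and was 10.8-fold lower in all. Tpx2, the activator of Aurora A on the spindle, was at 8.29 and 8.46 in M-CSF and 7.99 and 8.07 in FSL-1, a change of -0.34 that did not pass (adjusted p = 0.163), and at 6.40 and 6.26 with nutlin-3a, a 3.26-fold decrease (adjusted p = 0.000399). Dlgap5, a stabiliser of kinetochore fibres, did likewise, with -0.36 (adjusted p = 0.201) and -1.71 (adjusted p = 0.000843). Hmmr, a spindle pole protein, had -0.59 (adjusted p = 0.0237, lost without any 1 of the 4 compared arrays) and -1.60 (adjusted p = 0.000399).

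Of the 4 spindle checkpoint genes, 2 fell with FSL-1 and all 4 with nutlin-3a. Bub1, the kinase that recruits the checkpoint to kinetochores, was at 7.38 and 7.51 in M-CSF, 7.33 and 7.15 in FSL-1, and 5.23 and 4.78 with nutlin-3a (probe set 17391376). The M-CSF and FSL-1 arrays were close (log2 change -0.21, 95% interval -0.60 to 0.18, adjusted p = 0.554), and nutlin-3a lowered it 4.69-fold (log2 change -2.23, SE 0.167, adjusted p = 0.00043). Mad2l1, which inhibits Cdc20 while the checkpoint is on, overlapped between M-CSF (8.12 and 8.43) and FSL-1 (8.26 and 8.22), with a change of -0.03 (95% interval -0.39 to 0.33, adjusted p = 0.943), and was at 7.38 and 7.07 with nutlin-3a. That 2.02-fold decrease (adjusted p = 0.00976) was lost without either FSL-1 array or FSL-1 + nutlin-3a replicate 2. Bub1b and the kinase Ttk, which starts checkpoint signalling, fell in both steps: Bub1b by 0.83 (adjusted p = 0.0266) and 1.46 (adjusted p = 0.00293), and Ttk by 0.71 (adjusted p = 0.0185) and 1.22 (adjusted p = 0.00228) on the log2 scale. The FSL-1 calls of both were lost without any 1 of the 4 compared arrays.

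Genes of chromosome structure fell with nutlin-3a without exception among the 5 measured. Top2a, the topoisomerase that untangles sister chromatids, was at 8.71 and 8.92, then 7.77 and 7.84, then 5.99 and 5.51 (probe set 17268909). Its decrease was 2.02-fold with FSL-1 (adjusted p = 0.0127, lost without any 1 of the 4 compared arrays) and 4.14-fold with nutlin-3a (adjusted p = 0.000769). Mki67, the source of the Ki-67 antigen that coats mitotic chromosomes, was at 10.20 and 10.17, then 8.93 and 8.98, then 7.68 and 7.11 (probe set 17497334). The first step was -1.23 (SE 0.180, adjusted p = 0.00735, lost without M-CSF replicate 1 or either FSL-1 array) and the second -1.56 (adjusted p = 0.00293). The condensin subunit Ncaph had -0.64 (adjusted p = 0.0148, lost without any 1 of the 4 compared arrays) and -1.54 (adjusted p = 0.000391), with both nutlin-3a arrays at 5.89. Smc2 and Smc4, the ATPases of both condensins, were the least changed of this role: -0.38 (adjusted p = 0.108) and -1.20 (adjusted p = 0.00153) for Smc2, and -0.61 (adjusted p = 0.0645) and -1.01 (adjusted p = 0.0116, lost without either FSL-1 array or FSL-1 + nutlin-3a replicate 2) for Smc4.

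Factors of sister chromatid separation and mitotic exit were mixed: of the 5 genes 1 fell with FSL-1, 3 with nutlin-3a and 4 over both steps. Cdc20, the activator of the anaphase-promoting complex, was at 8.19 and 8.32, then 7.38 and 7.44, then 6.11 and 6.20, and fell in both steps (log2 change -0.85, SE 0.117, adjusted p = 0.00565, lost without FSL-1 replicate 1, and -1.26, adjusted p = 0.00126). Ube2c, the conjugating enzyme of that complex, varied more between replicates, at 8.68 and 9.12 in M-CSF, 8.36 and 8.34 in FSL-1, and 6.65 and 5.82 with nutlin-3a. Its FSL-1 change of -0.55 did not pass (95% interval -1.15 to 0.05, adjusted p = 0.284), and it was 4.33-fold lower with nutlin-3a (adjusted p = 0.0039). Espl1, the protease separase that cuts cohesin, had -0.50 (adjusted p = 0.189) and -0.72 (adjusted p = 0.0716), neither of which passed, and was 2.33-fold lower over both steps (adjusted p = 0.00681). Sgo1, which shields centromeric cohesin from removal, had -0.37 (adjusted p = 0.341), -0.90 (adjusted p = 0.0367, lost without any 1 of the 6 arrays) and -1.28 over both (adjusted p = 0.00582).

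Pttg1, the securin that holds separase inactive, was the exception among the 33 genes. It was at 6.91 and 6.84 in M-CSF, 6.90 and 7.23 in FSL-1, and 7.15 and 7.07 in FSL-1 + nutlin-3a (probe set 17261944). FSL-1 overlapped with both other groups. The log2 change was 0.19 with FSL-1 (adjusted p = 0.506), 0.04 with nutlin-3a (95% interval -0.28 to 0.36, adjusted p = 0.902) and 0.24 over both steps (95% interval -0.08 to 0.56, adjusted p = 0.36). The last interval excludes a decrease of the size seen in each of the other 32 genes, of which the smallest over both steps was that of Mad2l1 (-1.05, adjusted p = 0.00484).

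**Figure D3:**
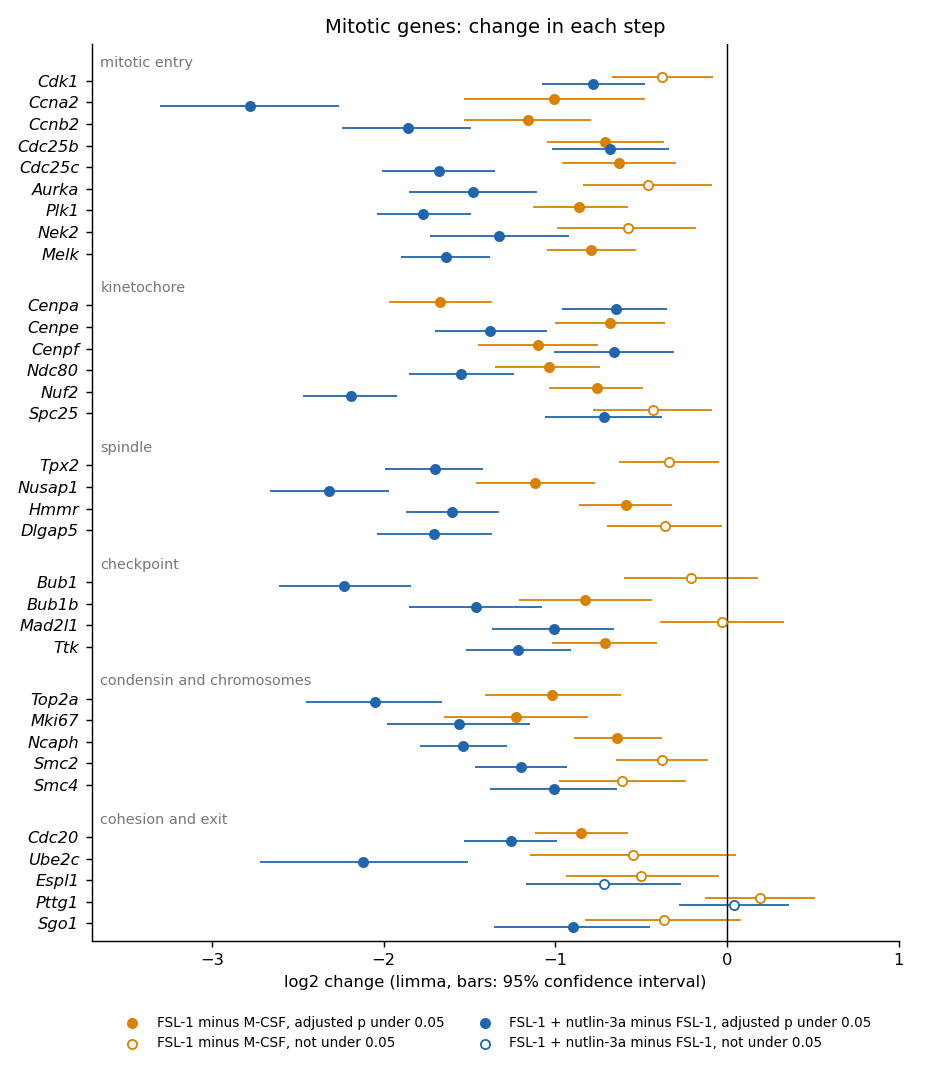
Change of each of the 33 mitotic genes from M-CSF to FSL-1 (orange) and from FSL-1 to FSL-1 + nutlin-3a (blue) on the log2 scale, with the 95% confidence interval of the limma fit. Filled points have an adjusted p under 0.05: 19 in the first step and 31 in the second. Cenpa, Cenpf and, by 0.02, Cdc25b have the lower value in the first step.

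For most of these genes the nutlin-3a step was the larger part of the total decrease. Over the 32 genes that fell from M-CSF to FSL-1 + nutlin-3a, the FSL-1 step made up a median of 32.5% of the log2 decrease, from 3.09% for Mad2l1 to 71.8% for Cenpa, and it was under 50% in 29. The difference of the steps was tested in the same fit, as the change with nutlin-3a minus the change with FSL-1. It was negative for 30 of the 33 genes, with a median of -0.74 (0.03 over all genes), and passed in 9 of them, with 3.34% of all genes passing in that direction. The 9 were Bub1 (-2.02, SE 0.289, adjusted p = 0.00887), Nuf2 (-1.43, adjusted p = 0.00899), Tpx2 (-1.36, adjusted p = 0.013), Dlgap5 (-1.34), Hmmr (adjusted p = 0.0342), Ncaph (-0.90), Nusap1 (-1.20), Ccna2 (-1.78) and Plk1 (-0.91), the last with adjusted p = 0.0485. All 4 spindle genes were among them. Cenpa was the gene with a difference in the other direction (1.02, SE 0.227, adjusted p = 0.0466), as 1.63% of all genes had. The FSL-1 arrays enter both steps. The calls of all 9 genes were lost without either FSL-1 array, and fewer of the 33 genes passed without any 1 other array. Over all genes, too, fewer passed in that direction in each of these fits. How far the loss is particular to the 33 genes was not tested. The Cenpa call remained without M-CSF replicate 2 and was lost without any other array.

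The comparison over both steps did not rest on any 1 array: 32 genes fell in each of the fits with 1 array left out. The count of 31 with nutlin-3a became 23 when FSL-1 replicate 1 was omitted and 22 when replicate 2 was. Omitting an array of FSL-1 + nutlin-3a gave 26 and 25. The count of 19 with FSL-1 became 8 and 10 when an M-CSF array was omitted, and 5 for either of the FSL-1 arrays. In that comparison Cenpa, Ndc80 and Nusap1 passed under all 13 alternatives tried, and 22 genes did so with nutlin-3a.

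**Figure D4:**
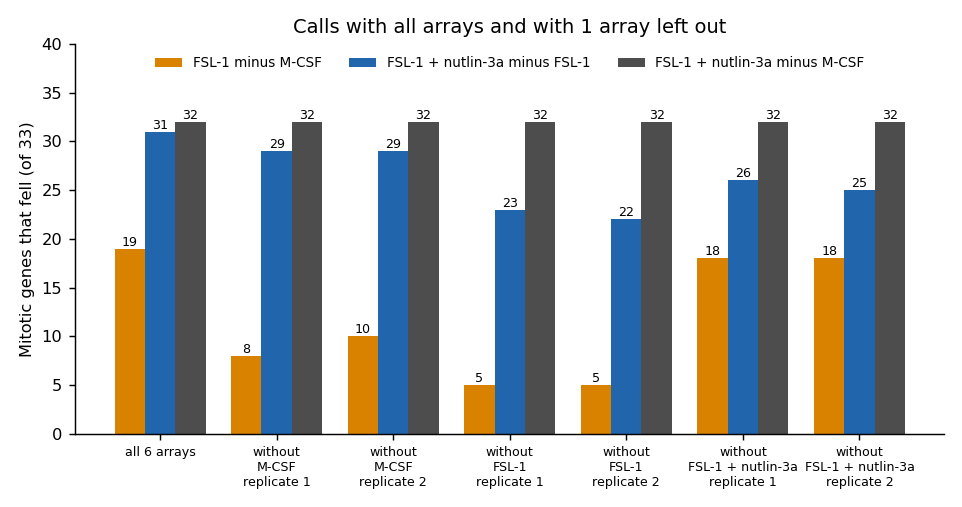
Number of the 33 mitotic genes that fell at an adjusted p under 0.05 with all 6 arrays and with each array left out in turn, for FSL-1 minus M-CSF (orange), FSL-1 + nutlin-3a minus FSL-1 (blue) and FSL-1 + nutlin-3a minus M-CSF (grey). The grey bars stay at 32, while the orange bars drop from 19 to 5 without either FSL-1 array.

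Other genes of mitosis, taken from lists by role, changed less than the 33 in their medians. Both the 33 genes and the lists were chosen with earlier results of these data known. This order of medians is therefore a description and was not tested. Some listed genes had no value: 9 of 12 were measured for mitotic entry, without Ccnb1, Pkmyt1 and Ccnf. For kinetochore and centromere 22 of 27 were measured, for spindle and centrosome 22 of 23, and for condensin and cohesin 15 of 16. Of the 9 further genes of mitotic entry, 0 fell with FSL-1 (limma, 3 at an unadjusted p under 0.05), 3 with nutlin-3a and 6 over both steps, with medians of -0.18, -0.66 and -0.81. With 1 array omitted these counts were 0 to 1, 1 to 4 and 4 to 6, the lowest nutlin-3a count being that without FSL-1 replicate 1, and with eBayes trend and robust the nutlin-3a count was 6. Mastl, the kinase that blocks the phosphatase opposing Cdk1, fell by 1.99 on the log2 scale with nutlin-3a (adjusted p = 0.000338), and Bora, an activator of Plk1, had -0.97 (adjusted p = 0.00566, lost without FSL-1 replicate 1). Cks2, a small Cdk partner, had -2.59 over both steps (adjusted p = 0.00118), while Ensa, a substrate of Mastl, had 0.14 (adjusted p = 0.571). Of 9 further checkpoint genes, 0 fell with FSL-1 (2 at an unadjusted p), 5 with nutlin-3a and 5 over both steps (medians -0.13, -0.62 and -0.53). The nutlin-3a count was 3 without either of the FSL-1 arrays. The 3 genes with the smallest p with nutlin-3a were Spdl1, which brings dynein to kinetochores (-1.57, adjusted p = 0.000428), Zwilch (-1.36, adjusted p = 0.00235) and Trip13 (-0.97, adjusted p = 0.00373), and Kntc1 had -1.04 (adjusted p = 0.00961, lost without either of the FSL-1 arrays). The checkpoint protein Mad1l1, a partner of Mad2l1, had 0.00 with nutlin-3a (adjusted p = 0.998).

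Of 22 further kinetochore and centromere genes, 7 fell and 1 rose with FSL-1, 10 fell with nutlin-3a and 19 over both steps (medians -0.41, -0.46 and -0.87). Knl1, the scaffold that carries the checkpoint at kinetochores, had -0.90 with FSL-1 (adjusted p = 0.00729, lost without M-CSF replicate 1 or either FSL-1 array) and -1.32 with nutlin-3a (adjusted p = 0.00164), and Ska2, of a complex that follows microtubule ends, -1.54 with nutlin-3a (adjusted p = 0.0013). Cenpi and Ska3 had -1.94 (adjusted p = 8.91e-05) and -1.76 (adjusted p = 0.000119) over both steps. Zwint, a kinetochore protein, was the 1 that rose with FSL-1 (0.48, adjusted p = 0.0487), a call lost in 10 of 13 alternatives. Without any 1 of the arrays, 0 to 2 of the list fell with FSL-1 and 15 to 18 over both steps. Of 22 spindle and centrosome genes, 6 fell with FSL-1, 9 with nutlin-3a and 14 over both (medians -0.31, -0.53 and -0.76). Aspm, a spindle pole protein, had -1.66 with FSL-1 (adjusted p = 0.00047) and -0.75 with nutlin-3a (adjusted p = 0.0195, lost without FSL-1 replicate 2 or any array with nutlin-3a). Tacc3 and Spag5, which work at spindle poles and microtubules, had -1.78 (adjusted p = 0.000121) and -1.93 (adjusted p = 0.00017) over both. Tubg1, a gamma-tubulin that nucleates microtubules, had 0.37 over both steps (limma, adjusted p = 0.0908). These counts became 1 to 7, 2 to 9 and 9 to 12 with 1 array left out.

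Of 15 further condensin and cohesin genes, 5 fell with FSL-1, 3 with nutlin-3a and 11 over both steps (medians -0.47, -0.24 and -0.70, and 1 to 5, 1 to 3 and 6 to 10 with 1 array left out). Ncapd2, a condensin I subunit, fell in both steps (adjusted p = 0.00196 with FSL-1 and 0.00394 with nutlin-3a, and -1.88 over both). Ncapg2, of condensin II, and Esco2, a cohesin acetyltransferase, had -1.54 (limma, adjusted p = 0.000453) and -1.89 (adjusted p = 0.000537) over both. The cohesin regulator Pds5a had 0.14 over both (adjusted p = 0.502). Of 17 genes for the anaphase-promoting complex and its partners, 2 fell with FSL-1, 1 with nutlin-3a and 3 over both (medians -0.14, -0.05 and -0.32). These counts were 0 to 1, 0 to 1 and 2 to 3 with 1 array omitted: the FSL-1 count was 0 when FSL-1 replicate 1 or one of the M-CSF arrays was omitted and 1 for each other array, and the nutlin-3a count was 0 without any 1 of the 4 arrays it compares. With eBayes trend and robust they were 6, 3 and 9. The 3 over both steps were Anapc15 (-1.40, adjusted p = 0.00211), the ubiquitin chain-extending enzyme Ube2s (-0.74, adjusted p = 0.0069) and Cdc23 (-0.49, adjusted p = 0.0299, lost without any 1 of the 6 arrays). The other 14 did not pass in that fit. Whether the lists differ from each other was not tested.

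**Figure D5:**
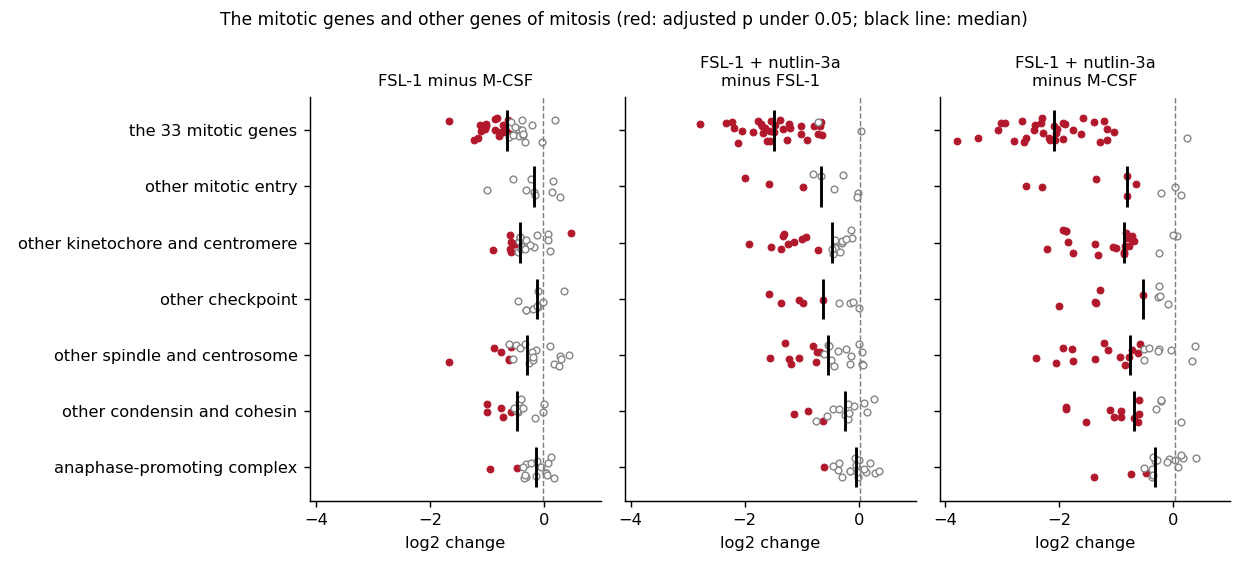
Change (log2) of the 33 mitotic genes and of 6 lists of other mitosis genes in the 3 comparisons. Each point is a gene, red with an adjusted p under 0.05, black bars are list medians and the dashed line is the median of all genes. The median of the 33 genes lies at -0.64, -1.48 and -2.10, and that of the anaphase-promoting complex list at -0.14, -0.05 and -0.32.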

How the data were processed

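Total RNA was extracted with a silica column kit, amplified with the NuGEN Ovation PicoSL system and labelled with biotin, per the labels' protocols. Per the submitters' processing notes, the authors used RMA and Affymetrix Expression Console 1.4, and the deposited table holds log2 values for each probe set. RMA equalises arrays by quantiles, so a shift common to most genes would not show. Of 34390 probe sets, 23521 name 1 gene in the platform annotation, giving 22180 genes. For genes with several probe sets the one with the highest mean was kept. The fit was made per gene over all 6 arrays with limma 3.58.1 (R 4.3.3; 3 residual and 4.88 prior degrees of freedom), with Benjamini-Hochberg adjustment over all genes and a threshold of 0.05. No filter on low values was used. The fit was run on simulated data with independent noise for each gene. Such data lack the replicate shifts that the 33 genes shared, so that run does not cover them. The 33 genes, the lists and their roles were chosen with earlier results of these data known. The rule names all 33 genes, up to 3 genes of each list and comparison that passed with the smallest p, and genes whose direction differs from most of their list. Of the latter, Zwint, Cdc25a, Ensa, Mad1l1, Tubg1 and Pds5a are examples picked after their values were seen, and so was Kntc1, outside the rule. Motif letters were searched in RefSeq windows (GRCm38.p6). The labels name no genome build for the array annotation. Replicate numbers were not treated as pairs: the correlations of replicate differences between groups were -0.188, 0.0175 and -0.0248. Figures were drawn with matplotlib 3.10.9. The number of arrays limits the precision.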

Additional observations from a re-analysis of the deposited data

How the results depend on the processing

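Alternatives were median-centred arrays, eBayes with trend and robust, averaged probe sets of a gene, dim genes removed, each comparison fitted without the remaining group, a block for the replicate number, and omission of single arrays. Crossing the M-CSF numbers within the block was tried only after seeing the data. Apart from the fits with 1 array left out, the number of the 33 genes that fell was 17 to 21 with FSL-1, 29 to 32 with nutlin-3a and 32 over both steps. With 1 array left out these counts were 5 to 18, 22 to 29 and 32. With the replicate block they were 17, 31 and 32, and with the crossed block 18, 30 and 32. The FSL-1 calls of Ccna2 and Cdc25c were lost with the replicate block, and those of Cdc25b and Cdc25c, with the nutlin-3a call of Cdc25b, with the crossed block. Over all genes the numbers that fell (654, 913 and 1095) were 1268, 1568 and 1789 with trend and robust, and 116 to 544, 256 to 760 and 569 to 791 with 1 array omitted. The number of the 33 genes that fell more in the nutlin-3a step (9) was 16 with trend and robust, 14 without dim genes, 4 with the replicate block, 6 with the crossed block and 0 to 6 with 1 array left out. The gene that fell less in that step, Cenpa, became 0 genes with arrays centred, with the replicate block and with the crossed block, and 0 to 1 with 1 array left out. The signs of 2 changes near zero turned: Mad2l1 with FSL-1 ranged from -0.19 (without M-CSF replicate 1) to 0.12 (without M-CSF replicate 2), and Pttg1 with nutlin-3a from -0.12 (without FSL-1 replicate 1) to 0.21 (without FSL-1 replicate 2). The causes were not tested. A group reduced to a single array is assumed to vary like the other groups. Signal over background is unknown.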
